A study of Mus musculus with 32 samples.

Results

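Tcf7, Tcf7l1, Tcf7l2 and Lef1 are the genes of the mouse TCF/LEF family, the transcription factors that bind β-catenin. They were found by symbol among the 31053 genes of the count tables, and all 4 members were measured and passed the filter on low counts. Libraries came from C1 cells, mouse embryonic stem cells (ESCs) that lack endogenous β-catenin and carry, through lentiviral vectors, a TRE3G-driven fusion of a destabilizing domain, mCherry and β-catenin S33Y, with the dox-dependent activator rtTA under the EF1a promoter. Doxycycline (dox) starts transcription of the fusion and trimethoprim (TMP) stabilizes its protein. There were 8 groups of 4 libraries.

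At day 0, cells of the group C1 had received 10 μM TMP without dox for 48 h and were sorted as live cells, while C1M and C1H cells had received 100 ng/mL dox with the same TMP and were sorted for middle and high mCherry. The other groups were collected after 4 days in NDiff227 medium, which holds neither LIF nor inhibitors. C1T cells continued from C1 with TMP alone. C1MV and C1HV cells continued from the middle and the high fraction in DMSO without either inducer. C1MDT and C1HDT cells continued from the same fractions with both inducers. The paper describes 2i/L before day 0, that is LIF with the MEK inhibitor PD and the GSK3 inhibitor Chiron, whereas the sample labels describe serum and LIF. Sorting for mCherry, exposure to dox and the fusion protein itself went together, so their effects cannot be told apart. The same holds for time and the change of medium. C1MV and C1HV also differed from C1T, C1MDT and C1HDT by the absence of TMP. This absence cannot be told apart from the other differences between these groups.

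The TCF/LEF factors bind the same DNA motif through a high mobility group box and have no strong activating domain of their own. Without β-catenin they recruit TLE corepressors to their target genes, and with β-catenin they recruit coactivators such as BCL9 and Pygopus proteins. In ESCs, TCF7L1 is best known as a repressor of pluripotency genes, from which β-catenin releases it. LEF1 and TCF7 are more often described as activators together with β-catenin, and TCF7L2 acts either way.

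The TCF/LEF transcripts shifted from Tcf7l1 and Tcf7l2 at day 0 to a mixture with Lef1 at day 4. Libraries were read from the 3′ ends of transcripts, so CPM (reads per library scaled to a common depth) were compared between genes without dividing by length. In C1, Tcf7l1 made up 58.9% of the summed CPM of the 4 genes, Tcf7l2 37.7% and Lef1 0.940%. In C1T, Lef1 made up 54.4%, Tcf7l1 30.2% and Tcf7l2 13.7%. Lef1 had thus become the most abundant member in C1T, whereas by group mean Tcf7l1 still had the largest share in the 4 day 4 groups that had been induced, from 38.9% in C1MDT, where Lef1 had 38.7%, to 44.6% in C1HV. In 2 of the 4 libraries of C1MDT and 2 of the 4 of C1HDT, Lef1 exceeded Tcf7l1. The share of Tcf7 stayed between 1.69% and 3.02% in the 8 groups.

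The family summed to 265.3 ± 21.9 CPM in C1, to 216.8 ± 9.35 in C1M and to 209.1 ± 7.35 in C1H (SD, n = 4, as for all values given with ±). At day 4 C1T reached 496.2 ± 19.1, C1MV and C1HV 275.7 ± 14.1 and 289.7 ± 25.3, and C1MDT and C1HDT 340.9 ± 14.3 and 309.7 ± 20.6. The 4 C1T libraries had the highest sums of the 32, and the libraries of C1M and C1H lay below those of C1.

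**Figure D1:**
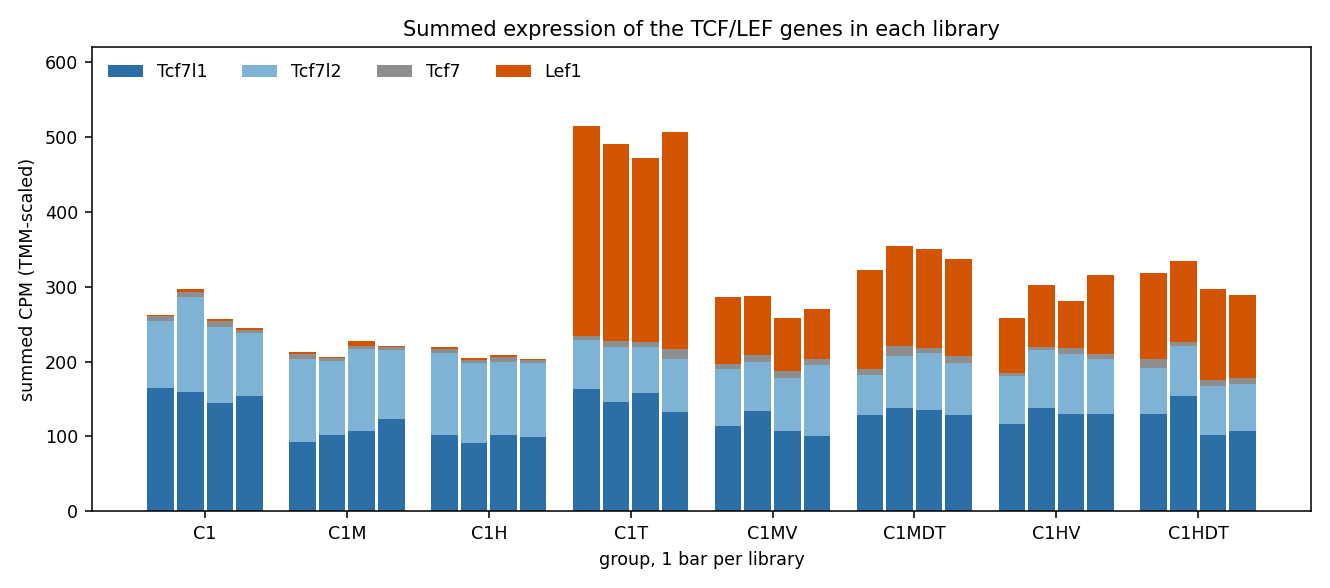
Summed CPM of Tcf7l1, Tcf7l2, Tcf7 and Lef1, stacked, with 1 bar for each of the 32 libraries. The Lef1 segment is barely visible at day 0 and is tallest in the 4 C1T libraries, whose sums lie between 471.7 and 515.1 CPM.

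Gene counts summed to 1366951 to 3648787 per library, and 3 counts corresponded to 0.822 to 2.19 CPM. Ctnnb1, the gene of β-catenin, had 7.81 ± 2.62 CPM in C1, 12.2 ± 3.84 in C1M and 41.1 ± 5.70 in C1H, and at day 4 it had 6.21 to 9.74 CPM on average in C1T, C1MV and C1HV but 29.2 in C1MDT and 30.8 in C1HDT. These levels followed the labelled induction in C1H, C1MDT and C1HDT, while the rise of 0.61 (log2) in C1M over C1 did not pass the test (FDR = 0.0551), and the counts do not separate the fusion from a remnant of the endogenous gene. The 7 naive ESC markers summed to 5325 to 5554 CPM in C1 and to 4004 to 4321 CPM in C1M and C1H, without overlap. At day 4 they summed to 787.1 to 924.1 CPM in C1T, to 1074 to 1440 CPM where induction was withdrawn (C1MV and C1HV) and to 494.5 to 667.9 CPM where it was continued (C1MDT and C1HDT). The 5 endoderm markers, with Foxa2, Sox17 and Gata6 among them, summed to 3.26 to 11.2 CPM in C1T, to 77.4 to 107.0 CPM in the withdrawn and to 117.6 to 137.5 CPM in the continued groups. In the same order, the 4 post-implantation epiblast markers summed to 1086 to 1376, to 591.8 to 682.2 and to 924.7 to 1092 CPM. The 3 neuroectoderm markers summed to 113.5 to 138.1, to 101.9 to 126.1 and to 155.7 to 201.2 CPM. Among the latter, Pax6 did not follow the sum, with a mean of 24.0 CPM in C1T against 15.5 in C1MDT and 15.9 in C1HDT. These marker levels moved with several results below, and their part in those results was not tested. The 5 T lymphocyte markers, from a cell type known for Tcf7 and Lef1, summed to at most 7.18 CPM in any library. Uniquely aligned reads that were assigned to no gene made up 20.1% to 23.5% at day 0 and 10.7% to 16.2% at day 4, and their part in the changes over time was not tested either.

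Lef1, lymphoid enhancer binding factor 1 (ENSMUSG00000027985, GRCm38 chromosome 3, 131110471 to 131224356, plus strand), was near the limit of detection at day 0 and rose strongly in every day 4 group. A shorter LEF1 protein without the β-catenin binding region is known to be made from a start inside the gene. RefSeq lists 4 starts, at 131110297, 131110323, 131112791 and 131156294, and which of them gives that protein was not examined. The 3′ reads do not tell the forms apart, since the 4 protein-coding transcripts annotated in GENCODE end in the same exon. The sequences upstream of the first and of the last start (RefSeq, GRCm38.p6) are shown because Lef1 was the member that changed most, the last also because it was the only window of the 4 genes with a match to the motif. Capitals mark the core of the TCF/LEF motif, TCAAAG or its reverse complement CTTTGA.
Lef1 first start, chr3:131110047-131110296, plus strand: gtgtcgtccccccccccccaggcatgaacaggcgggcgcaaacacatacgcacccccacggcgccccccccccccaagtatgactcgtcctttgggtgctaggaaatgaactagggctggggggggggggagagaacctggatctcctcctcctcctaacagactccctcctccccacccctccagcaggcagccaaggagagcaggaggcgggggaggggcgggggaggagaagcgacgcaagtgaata
Lef1 last start, chr3:131156044-131156293, plus strand: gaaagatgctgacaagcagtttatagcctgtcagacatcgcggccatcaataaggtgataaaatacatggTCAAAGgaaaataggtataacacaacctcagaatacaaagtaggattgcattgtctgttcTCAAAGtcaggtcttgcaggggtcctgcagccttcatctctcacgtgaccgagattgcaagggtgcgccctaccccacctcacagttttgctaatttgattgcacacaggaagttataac
The window at the first start had a GC content of 66.4% and no core match, and that at the last start had 44.8% and 2 matches. The windows at the other 2 Lef1 starts had no match. The full motif ATCAAAG, or CTTTGAT on the other strand, was in 0 of the 9 windows of the 4 genes and in 3.21% of 32851 windows of 250 bases upstream of RefSeq starts. The core, which the full motif contains, was in 1 of the 9 windows and in 13.8% of all windows. These matches describe letters only, and binding was not measured here.

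In the C1 libraries Lef1 had 1.68, 3.39, 2.08 and 2.87 CPM, from 4 to 6 counts each. The C1M libraries had 1.70, 1.42, 6.19 and 0.825 CPM, where the third value came from 19 counts and the others from 2 to 4. The C1H libraries had 2.38, 2.44, 1.83 and 1.68 CPM, from 4 to 7 counts. The 3 day 0 groups overlapped, and replicate 3 of C1M stood above all other day 0 libraries. Lef1 was called in no comparison at day 0, with a log2 fold change of 0.14 (95% interval -0.71 to 0.99) in C1M vs C1 and of -0.21 (-1.11 to 0.68) in C1H vs C1. Without replicate 3 of C1M the first of these was -0.87 (FDR = 0.234).

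In C1T the 4 libraries had 280.6, 263.0, 245.9 and 290.3 CPM of Lef1, a mean of 269.9 ± 19.6. This was 107.8 times the mean of C1, or 6.75 ± 0.19 on the log2 scale (SE, FDR = 1.6e-65 by edgeR's quasi-likelihood test). Counting rises only, it ranked 8 by size among the 15280 genes tested. In these bulk libraries more cells with Lef1 and more Lef1 RNA per cell cannot be told apart. The genes called in C1T vs C1, higher or lower, made up 49.2% of those tested, and 2 of the 4 members were called, Lef1 higher and Tcf7l2 lower.

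Each induced fraction also gained Lef1 over its own day 0 cells. The log2 fold change was 4.81 in C1MV and 5.58 in C1MDT over C1M, and 5.21 in C1HV and 5.72 in C1HDT over C1H, with an FDR of 1.3e-47 or lower in all but the first (2.0e-46). By size, counting rises only, these changes ranked 33, 15, 22 and 13 among all genes tested. Without replicate 3 of C1M the changes over C1M were larger, at 5.82 and 6.59.

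At day 4 the induced groups held less Lef1 than C1T. The C1MV libraries had 89.9, 78.7, 70.5 and 67.7 CPM and the C1HV libraries 72.8, 83.6, 63.2 and 105.3 CPM. With both inducers continued, the C1MDT libraries had 132.6, 133.4, 131.2 and 130.0 CPM and the C1HDT libraries 115.2, 108.3, 122.3 and 110.6 CPM. No library of these 4 groups reached the lowest C1T library, and none of the withdrawn groups reached the lowest library of the continued ones. Against C1T, Lef1 fell by 1.80 ± 0.10 (log2, SE) in C1MV (FDR = 1.3e-32), by 1.75 ± 0.11 in C1HV (FDR = 1.0e-30), by 1.03 ± 0.097 in C1MDT (FDR = 1.7e-17) and by 1.24 ± 0.098 in C1HDT (FDR = 5.2e-22). These 4 comparisons share the C1T libraries.

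Lef1 was higher where induction was continued than where it was withdrawn. The ratio of means was 1.72 in C1MDT over C1MV, or 0.77 ± 0.11 on the log2 scale (FDR = 5.5e-09), and 1.40 in C1HDT over C1HV, or 0.51 ± 0.11 (FDR = 0.000199). Lef1 was the only member called in these comparisons, in which 12.6% and 15.9% of all genes were called. The summed epiblast, neuroectoderm and endoderm markers were also higher in every continued than in every withdrawn library and the naive ESC markers lower, and their part in the difference was not tested. Not each marker followed its sum, as the endoderm gene Sox7 had lower means in the continued groups (3.12 and 3.88 against 4.21 and 5.10 CPM) and the naive gene Pou5f1 higher ones. The difference between these effects in the high and the middle fraction was -0.26 (FDR = 0.685, 95% interval -0.56 to 0.046), and 0% of all genes were called for it by edgeR or DESeq2, against 1285 genes with an unadjusted p under 0.05. Ordered by mean, Lef1 ran from C1T through C1MDT, C1HDT, C1HV and C1MV to C1M, C1 and C1H. In this order C1MDT and C1HDT did not pass the test although their libraries did not overlap (0.21 on the log2 scale, FDR = 0.93), C1HV and C1MV overlapped, and so did the 3 day 0 groups.

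**Figure D2:**
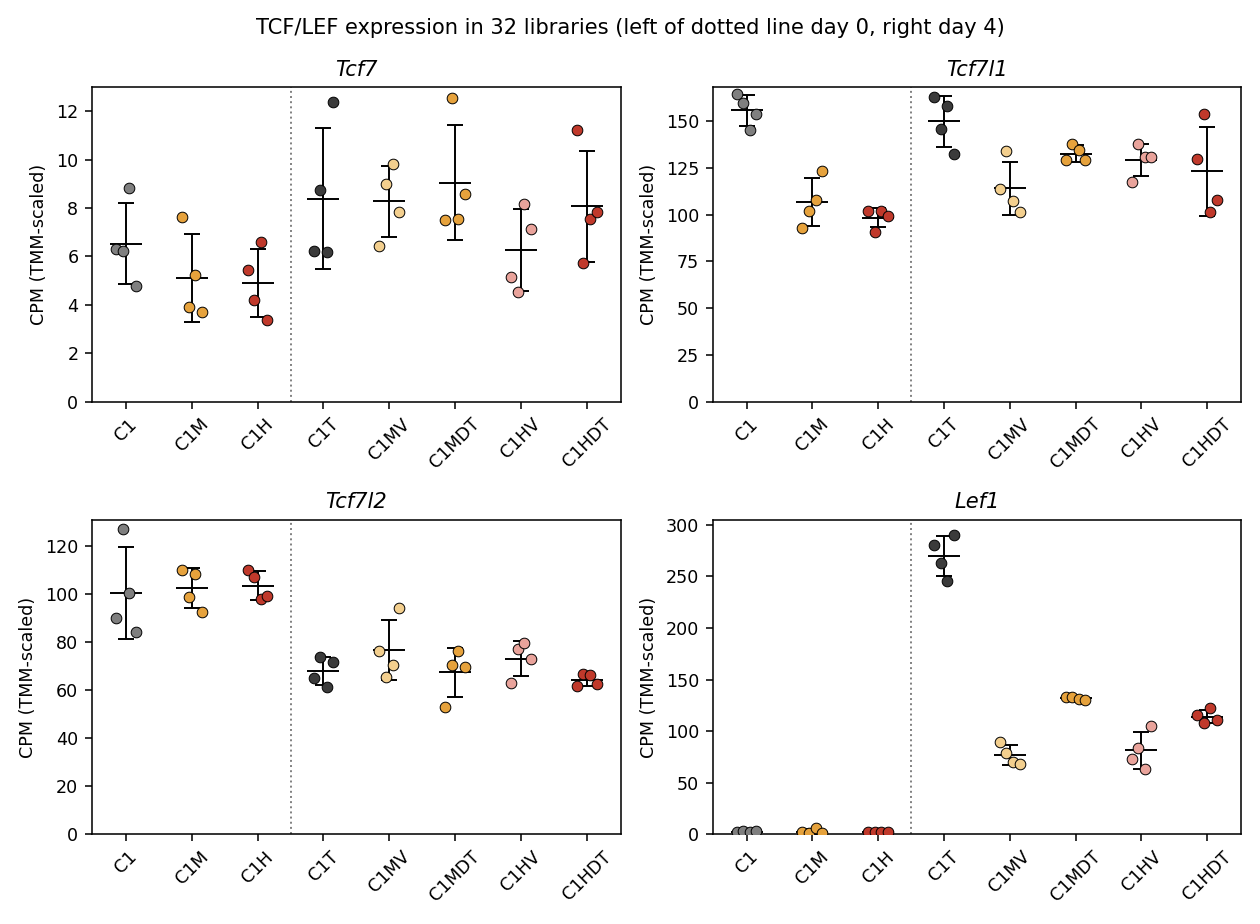
CPM of each member in the 32 libraries (points), with the mean and SD of each group of 4 (bars), on linear axes from 0 that differ between panels. Lef1 lies at 6.19 CPM or less at day 0 and between 245.9 and 290.3 CPM in C1T, above all other day 4 libraries, while Tcf7l1 is lower in C1M and C1H than in C1 and Tcf7l2 is lower at day 4 than at day 0.

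Tcf7l1 (ENSMUSG00000055799, chromosome 6, 72626378 to 72789254, minus strand), the repressor of pluripotency genes, was the member that differed with induction at day 0. The C1 libraries had 164.4, 159.6, 145.3 and 153.6 CPM. The C1M libraries had 92.9, 102.1, 107.8 and 123.3 CPM, and the C1H libraries 101.8, 90.9, 101.8 and 99.2 CPM. Every induced library lay below every C1 library. Tcf7l1 fell by 0.55 ± 0.094 (log2, SE) in C1M vs C1 (FDR = 7.9e-07) and by 0.66 ± 0.094 in C1H vs C1 (FDR = 3.2e-09), that is to 0.684 and 0.632 times the mean of C1. It was the only one of the 4 members called in either comparison, where 26.3% and 25.9% of all genes were called, and both comparisons share the C1 libraries. The summed naive ESC markers were lower in the same libraries. So was the sum of the 4 mesoderm markers (54.1 to 60.7 CPM in C1 against 32.6 to 46.3 in C1M and C1H). The sums of the 5 endoderm markers (6.22 to 12.2 against 14.4 to 21.3 CPM) and the 4 fibroblast markers (6.71 to 8.61 against 13.4 to 20.5 CPM) were higher. None of these sums overlapped between C1 and the induced groups. The fibroblast rise lay mainly in Thy1, with means of 0.720 CPM in C1, 9.86 in C1M and 10.8 in C1H. Col1a1 fell, from 5.14 CPM in C1 to 3.73 in C1M and 2.10 in C1H. The naive gene Nanog and the mesoderm gene Mixl1 had higher means in C1M than in C1, against their sums. The part of these markers in the result was not tested. C1H and C1M did not differ by the test (-0.11, 95% interval -0.30 to 0.074, FDR = 0.692), and no member was called in C1H vs C1M, where 1.77% of all genes were.

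Without induction Tcf7l1 stayed near its day 0 level. The C1T libraries had 163.1, 145.7, 158.2 and 132.4 CPM, and the change over C1 was -0.05 (95% interval -0.24 to 0.13, FDR = 0.678). The induced cells of the high fraction gained Tcf7l1 over C1H, by 0.39 in C1HV (FDR = 0.000368) and by 0.32 in C1HDT (FDR = 0.00245), and those of the middle fraction by 0.32 over C1M in C1MDT (FDR = 0.00229). In C1MV the change over C1M was 0.11 (FDR = 0.364). The call in C1HDT vs C1H rested on replicate 2 of C1HDT, which had the highest value of its group, and without it the change was 0.20 (FDR = 0.0736).

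Among the day 4 groups Tcf7l1 had 113.6, 134.2, 107.2 and 101.3 CPM in C1MV, 129.1, 137.8, 134.8 and 129.0 CPM in C1MDT, 117.2, 137.6, 130.7 and 130.7 CPM in C1HV, and 129.8, 153.6, 101.3 and 107.9 CPM in C1HDT. All 4 groups overlapped with C1T. Tcf7l1 was lower than in C1T by 0.39 ± 0.095 in C1MV (FDR = 0.000521) and by 0.29 ± 0.093 in C1HDT (FDR = 0.00842). The differences of -0.18 in C1MDT (FDR = 0.133) and of -0.22 in C1HV (FDR = 0.0733) did not pass the test. The call in C1HDT was lost without replicate 1 of C1T (-0.25, FDR = 0.0513), replicate 3 of C1HDT (-0.21, FDR = 0.0882) or replicate 4 of C1HDT (-0.23, FDR = 0.0753). Lef1 and Tcf7l1 were thus the 2 members called, both lower, in C1MV vs C1T and in C1HDT vs C1T, where 30.2% and 33.5% of all genes were called. In C1MDT vs C1T and C1HV vs C1T, Lef1 was the 1 member called, beside 33.4% and 28% of all genes.

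Ordered by mean, Tcf7l1 ran from C1 through C1T, C1MDT, C1HV, C1HDT, C1MV and C1M to C1H, and no neighbours in this order differed by the test. By the test, Tcf7l1 differed less from uninduced cells at day 4 than at day 0 in 3 of the 4 groups. C1MV moved the same way without a call, and in C1MV and C1HV the inducers had been withdrawn. The difference of the log2 changes, day 4 over C1T minus day 0 over C1, was 0.37 for C1MDT (FDR = 0.0273), 0.44 for C1HV (FDR = 0.00907), 0.37 for C1HDT (FDR = 0.0281) and 0.16 for C1MV (FDR = 0.428). All genes were called at 24.4%, 21.9%, 25.2% and 22.5% for these differences. That for C1HV kept its call without any of the 16 libraries in turn, whereas the call for C1MDT was lost without replicate 1 (0.31) or 2 (0.35) of C1M or replicate 4 of C1T (0.35), with an FDR of up to 0.0854. The call for C1HDT was lost without replicate 1 of C1 (0.35), replicate 2 of C1H (0.33), replicate 4 of C1T (0.33) or replicate 1 (0.34) or 2 (0.26) of C1HDT, with an FDR of up to 0.165.

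For Lef1 the same differences were -1.94 for C1MV (FDR = 0.000367), -1.17 for C1MDT (FDR = 0.0402), -1.54 for C1HV (FDR = 0.0114) and -1.03 for C1HDT (FDR = 0.103). They set large counts at day 4 against 2 to 19 counts at day 0. Without replicate 3 of C1M the values were -0.93 for C1MV (FDR = 0.296) and -0.16 for C1MDT (FDR = 0.911). The call for C1MDT was also lost without replicate 1 (-0.97) or 3 (-1.11) of C1 or replicate 1 (-1.14) or 4 (-1.12) of C1T, while that for C1HV held without any of the 16 libraries in turn.

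Tcf7l2 (ENSMUSG00000024985, chromosome 19, 55741820 to 55933654, plus strand), which can activate or repress, differed between day 0 and day 4 but in no comparison within a day. At day 0 the libraries had 90.2, 127.3, 100.6 and 84.2 CPM in C1, 110.3, 98.9, 108.5 and 92.8 CPM in C1M, and 110.0, 107.3, 98.2 and 99.2 CPM in C1H. At day 4 they had 65.2, 73.7, 61.5 and 71.8 CPM in C1T, 76.6, 65.6, 70.5 and 94.1 CPM in C1MV, and 53.0, 70.4, 76.5 and 69.8 CPM in C1MDT. The C1HV libraries had 63.0, 77.3, 79.5 and 72.8 CPM and the C1HDT libraries 61.9, 66.8, 66.2 and 62.6 CPM. Only replicate 4 of C1MV, at 94.1 CPM, overlapped with day 0 libraries.

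Tcf7l2 fell by 0.56 ± 0.11 (log2, SE) in C1T vs C1 (FDR = 7.5e-06), by 0.45 ± 0.11 in C1MV and 0.58 ± 0.10 in C1MDT over C1M (FDR = 0.000167 and 4.8e-07), and by 0.50 ± 0.11 in C1HV and 0.69 ± 0.10 in C1HDT over C1H (FDR = 3.5e-05 and 4.0e-09). The means at day 4 were 0.621 to 0.747 times those of the matching day 0 group. Against C1T the differences lay between -0.08 in C1HDT and 0.15 in C1MV, with FDR from 0.357 to 0.958, and against C1 they were 0.04 in C1M (95% interval -0.16 to 0.24) and 0.05 in C1H (-0.15 to 0.26). Ordered by mean, the day 0 groups C1H, C1M and C1 stood above C1MV, C1HV, C1T, C1MDT and C1HDT. The step from C1 to C1MV was the only one between neighbours that passed the test (FDR = 0.000815). Of the 12 protein-coding transcripts annotated for Tcf7l2, 10 contain the same terminal exon, so its isoforms were not separated either.

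Tcf7 (ENSMUSG00000000782, chromosome 11, 52252371 to 52283014, minus strand), known from T cell development and for isoforms with and without the β-catenin binding region, was the least abundant member at day 4, with 8 to 34 counts per library over all groups. C1 cells had 6.53 ± 1.68 CPM of Tcf7, C1M cells 5.12 ± 1.81 and C1H cells 4.90 ± 1.42. At day 4 the means were 8.39 ± 2.92 in C1T, 8.27 ± 1.46 and 6.26 ± 1.69 in the withdrawn groups C1MV and C1HV, and 9.04 ± 2.38 and 8.08 ± 2.29 in the continued groups C1MDT and C1HDT. All groups overlapped with their neighbours in the order of the means, and none of these neighbours differed by the test.

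Tcf7 rose by 0.71 ± 0.31 (log2, SE) in C1MV vs C1M (FDR = 0.0463), by 0.83 ± 0.29 in C1MDT vs C1M (FDR = 0.0125) and by 0.73 ± 0.30 in C1HDT vs C1H (FDR = 0.0305). In the C1M libraries it had 7.64, 3.90, 5.21 and 3.71 CPM, against 6.45, 9.00, 9.81 and 7.84 CPM in C1MV and 7.49, 12.5, 7.53 and 8.60 CPM in C1MDT. In C1H it had 5.45, 4.18, 6.59 and 3.36 CPM, against 11.2, 5.72, 7.54 and 7.83 CPM in C1HDT. Each of these pairs of groups overlapped. The changes of 0.33 in C1T vs C1 (FDR = 0.403) and 0.35 in C1HV vs C1H (FDR = 0.398) did not pass the test. The call in C1MDT was lost without replicate 2 of C1M (0.72, FDR = 0.0501) or replicate 2 of C1MDT (0.63, FDR = 0.0933), and that in C1HDT without replicate 2 (0.66) or 4 (0.60) of C1H or replicate 1 of C1HDT (0.52), with an FDR of up to 0.190. The call in C1MV held only without replicate 1 of C1M or replicate 1 of C1MV, and the other 6 libraries left out in turn gave 0.60 to 0.73 with an FDR of up to 0.138.

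Counted over the family, 3 of the 4 members were called in C1MV vs C1M (Lef1 and Tcf7 higher, Tcf7l2 lower) and in C1HV vs C1H (Lef1 and Tcf7l1 higher, Tcf7l2 lower). In these comparisons 45.8% and 47.0% of all genes were called. All 4 members were called in C1MDT vs C1M and C1HDT vs C1H, where Lef1, Tcf7l1 and Tcf7 rose and Tcf7l2 fell, beside 52.4% and 55.7% of all genes. Tcf7 was not called in C1HDT vs C1H with DESeq2 (FDR = 0.0555), with library size only (FDR = 0.0541) or without the filter (FDR = 0.0514), nor in C1MV vs C1M with these (FDR = 0.0686, 0.0581 and 0.0696), which leaves 3 and 2 members. Between the sorted fractions at day 4 no member was called, in C1HV vs C1MV with 0.00654% of all genes called or in C1HDT vs C1MDT with 0% by edgeR or DESeq2, where 814 genes had an unadjusted p under 0.05. The largest of these 8 differences was -0.40 for Tcf7 in C1HV vs C1MV (95% interval -1.02 to 0.22).

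**Figure D3:**
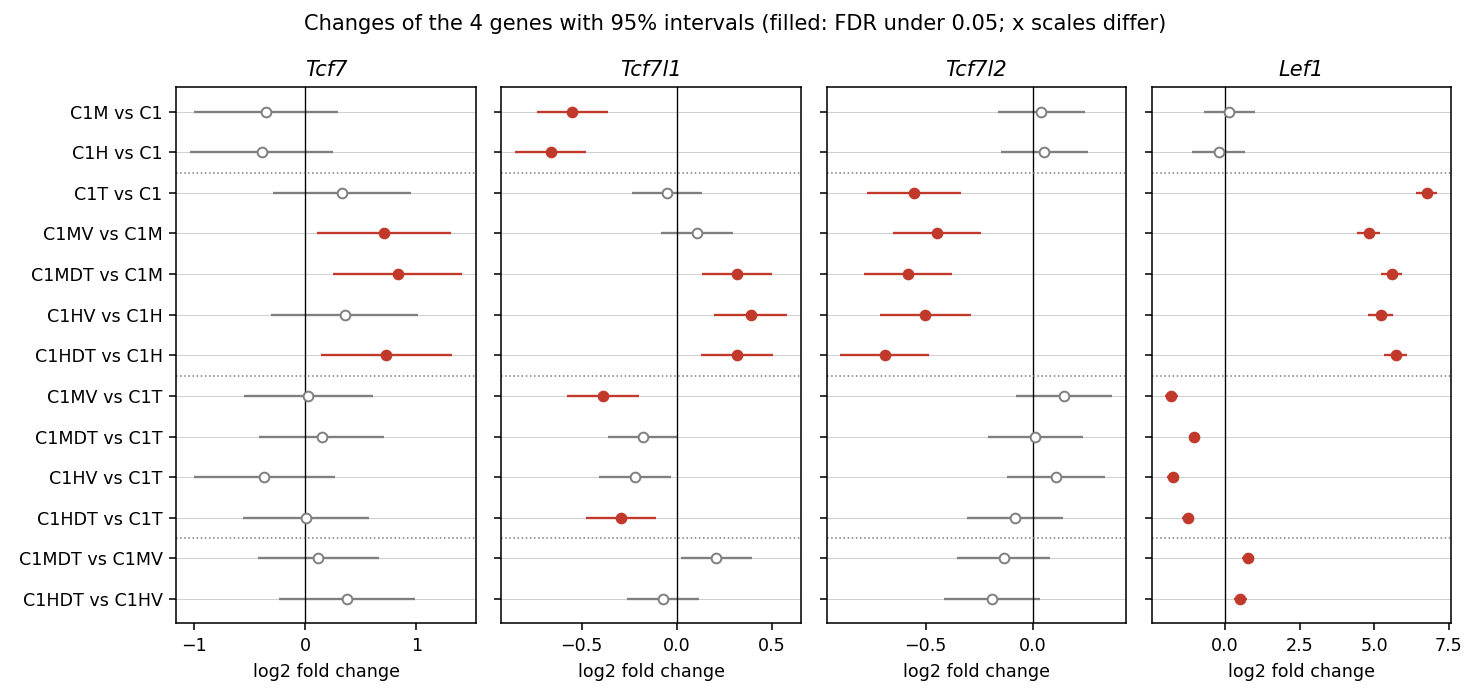
Log2 fold changes of the 4 members in 13 comparisons, with 95% intervals from the fit and filled red points where the FDR is under 0.05, on x axes that differ between panels. Dotted lines separate day 0, day 4 over day 0, day 4 over C1T, and continued over withdrawn induction: Lef1 is positive in every change over time and negative in every comparison with C1T, while Tcf7l2 is called only over time.

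The TLE family, which includes the corepressors that TCF/LEF factors recruit in the absence of β-catenin, changed in both directions without induction. In C1T vs C1, where 49.2% of all genes were called with a median log2 change of 0.00884, 1 of the 6 genes rose and 5 fell (median -1.16). Tle2, among those that fell, had at most 8 counts in any C1 library and 1 in any C1T library. With continued induction, 1 rose and 3 fell in C1MDT vs C1M, and 1 rose and 4 fell in C1HDT vs C1H, beside 52.4% and 55.7% of all genes called. After withdrawal, 1 rose and 3 fell in C1MV vs C1M, and none rose and 3 fell in C1HV vs C1H, beside 45.8% and 47.0%, and Tle4 was not called in the latter (0.16, FDR = 0.149). Tle4 rose from 181.8 to 401.2 CPM (1.14 on the log2 scale, FDR = 1.7e-23), whereas Tle5 (Aes in the annotation), a truncated member of the family, fell from 210.2 to 79.2 CPM (-1.42, FDR = 2.3e-29) and Tle3 from 135.9 to 72.2 CPM (-0.90, FDR = 6.7e-09). Tle4 was lower than in C1T in all 4 induced day 4 groups, by 0.91 to 1.23 on the log2 scale, which was the same direction as Lef1. At day 0 Tle4 was lower in C1M (-0.46, FDR = 2.3e-05) and in C1H (-0.25, FDR = 0.0265) than in C1, as Tcf7l1 was. Tle3 was higher than C1T in C1MV (0.61) and C1HV (0.84) but passed no test in C1MDT (0.24, FDR = 0.135) or C1HDT (0.03, FDR = 0.871).

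Of the 6 inhibitors of the TCF and β-catenin complex, 5 rose in C1T vs C1 and none fell (median 0.78), beside the 49.2% of all genes called there. Ctnnbip1, which blocks β-catenin from binding TCF factors, rose by 1.12 (FDR = 5.7e-21). The corepressor Ctbp1 rose by 1.13 (FDR = 2.0e-13) and its paralogue Ctbp2 by 0.67 (FDR = 2.4e-12). In the induced groups, 3 of the 6 rose in C1MV vs C1M, 3 in C1MDT vs C1M, 4 in C1HV vs C1H and 3 in C1HDT vs C1H, and none fell. In these comparisons 45.8%, 52.4%, 47.0% and 55.7% of all genes were called. Ctnnbip1 was also the 1 gene of this list that rose at day 0, by 0.32 in C1M (FDR = 0.00976) and 0.29 in C1H (FDR = 0.0188), beside 26.3% and 25.9% of all genes called. It was higher in C1MDT than in C1MV (0.54, FDR = 4.8e-07) and in C1HDT than in C1HV (0.84, FDR = 1.0e-13). Ctbp2 was lower than in C1T in all 4 induced groups, by 0.64 to 0.76.

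Among 8 coactivators of β-catenin, 2 rose and 4 fell in C1T vs C1 (median -0.20), again beside 49.2% of all genes. Bcl9l, which links β-catenin to Pygopus, fell by 1.06 (FDR = 2.3e-13), and in the 4 induced groups it was higher than in C1T by 0.99 to 1.33. At day 0, 1 of the 8 rose and 3 fell in C1M vs C1, and 1 rose and 2 fell in C1H vs C1, beside 26.3% and 25.9% of all genes called. Pygo2, a Pygopus gene, rose by 0.44 and 0.38 (FDR = 0.00188 and 0.00918). The acetyltransferase genes Crebbp and Ep300 fell in C1M vs C1, both by 0.64 (FDR = 3.7e-11 and 4.0e-08), and in C1H vs C1, both by 0.35 (FDR = 0.000238 and 0.00324). They were also lower than in C1T in every induced group. Of 7 genes for enzymes that modify TCF/LEF proteins, 2 rose in both C1M and C1H over C1, a share near the 26.3% and 25.9% of all genes called. These were Nlk, a kinase that reduces DNA binding of TCF/LEF factors (0.45 and 0.52, FDR = 0.00949 and 0.00285), and Tnik, a kinase of TCF7L2 (0.71 and 0.77, FDR = 0.00209 and 0.00065). In C1T vs C1, 2 of these genes rose and 1 fell, a share near the 49.2% of all genes called.

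Of 10 genes listed as direct targets of TCF and β-catenin, 7 passed the filter on low counts, while Sp5, Rnf43 and Lgr5 did not. In C1T vs C1, 3 rose and 1 fell, a share near the 49.2% of all genes called. Axin2, a negative feedback component of the pathway, had a mean of 1.01 ± 1.26 CPM in C1 and 3.38 ± 0.573 in C1T (1.71 on the log2 scale, FDR = 0.014), and at no more than 15 counts in any library it was not called in C1M or C1H over C1. Ccnd1, the gene of cyclin D1, rose from 30.6 to 222.0 CPM (2.87, FDR = 3.5e-52), and in the 4 induced groups it was lower than in C1T by 0.69 to 0.97. At day 0, Ccnd1 and Notum, a secreted inhibitor of Wnt ligands, were lower in both C1M and C1H than in C1, with Ccnd1 at -0.43 and -0.79. Notum had at most 14 counts in any C1 library, and its lowest C1 library (0.479 CPM) lay below the lowest of C1M (0.709 CPM). Nkd1, an inhibitor of Dishevelled, was higher in C1H (1.63, FDR = 0.00263), with at most 18 counts in any C1H library. Cdx1, a homeobox gene, had 3.58 CPM in C1 and 0 counts in the C1T libraries. Dkk1, a secreted Wnt antagonist, had at most 3 counts in any C1T library, and its means were 3.76 and 4.85 CPM in C1MV and C1HV and 5.69 and 6.61 CPM in C1MDT and C1HDT, called higher than C1T in each (FDR = 9.4e-05 or lower).

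The 5 pluripotency genes known to be repressed by TCF7L1 were higher after withdrawn than after continued induction, and of the 4 naive ESC markers outside this list, 3 had higher means there too. Klf4 had 119.7 and 104.3 CPM in C1MV and C1HV against 44.0 and 42.7 CPM in C1MDT and C1HDT, Zfp42 148.1 and 133.2 against 46.5 and 38.5 CPM, and Sox2 460.6 and 522.2 against 264.0 and 256.9 CPM, whereas Pou5f1 had 42.6 and 37.1 against 49.3 and 50.9 CPM. In C1T vs C1, where 49.2% of all genes were called, 4 of the 5 listed genes fell (median -2.62), among them Tfcp2l1 (-4.71), Nanog (-2.69) and Esrrb (-2.62). Against C1T, 4 of the 5 were higher and Nr0b1 lower in both C1MV and C1HV, beside 30.2% and 28% of all genes called, with Nanog at 1.02 and 0.86 and Tfcp2l1 at 1.01 and 0.99. In the continued groups none was higher, and 4 were lower in C1MDT and 2 in C1HDT, beside 33.4% and 33.5% of all genes called, with Esrrb at -1.05 and -0.95 and Nr0b1 at -3.17 and -2.62. All 5 were lower in C1MDT than in C1MV and in C1HDT than in C1HV, beside 12.6% and 15.9% of all genes called, where the changes of Esrrb were -1.85 and -1.45. Tcf7l1 itself was called in neither of these last comparisons (0.21, FDR = 0.136 and -0.07, FDR = 0.685). At day 0, where Tcf7l1 was lower in C1M and C1H, 3 of the 5 were lower and Nanog higher (0.20, FDR = 0.0372) in C1M vs C1, and 2 were lower in C1H vs C1, beside 26.3% and 25.9% of all genes called. Tfcp2l1 fell by 0.45 and 0.49 and Esrrb by 0.44 and 0.45 in these.

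**Figure D4:**
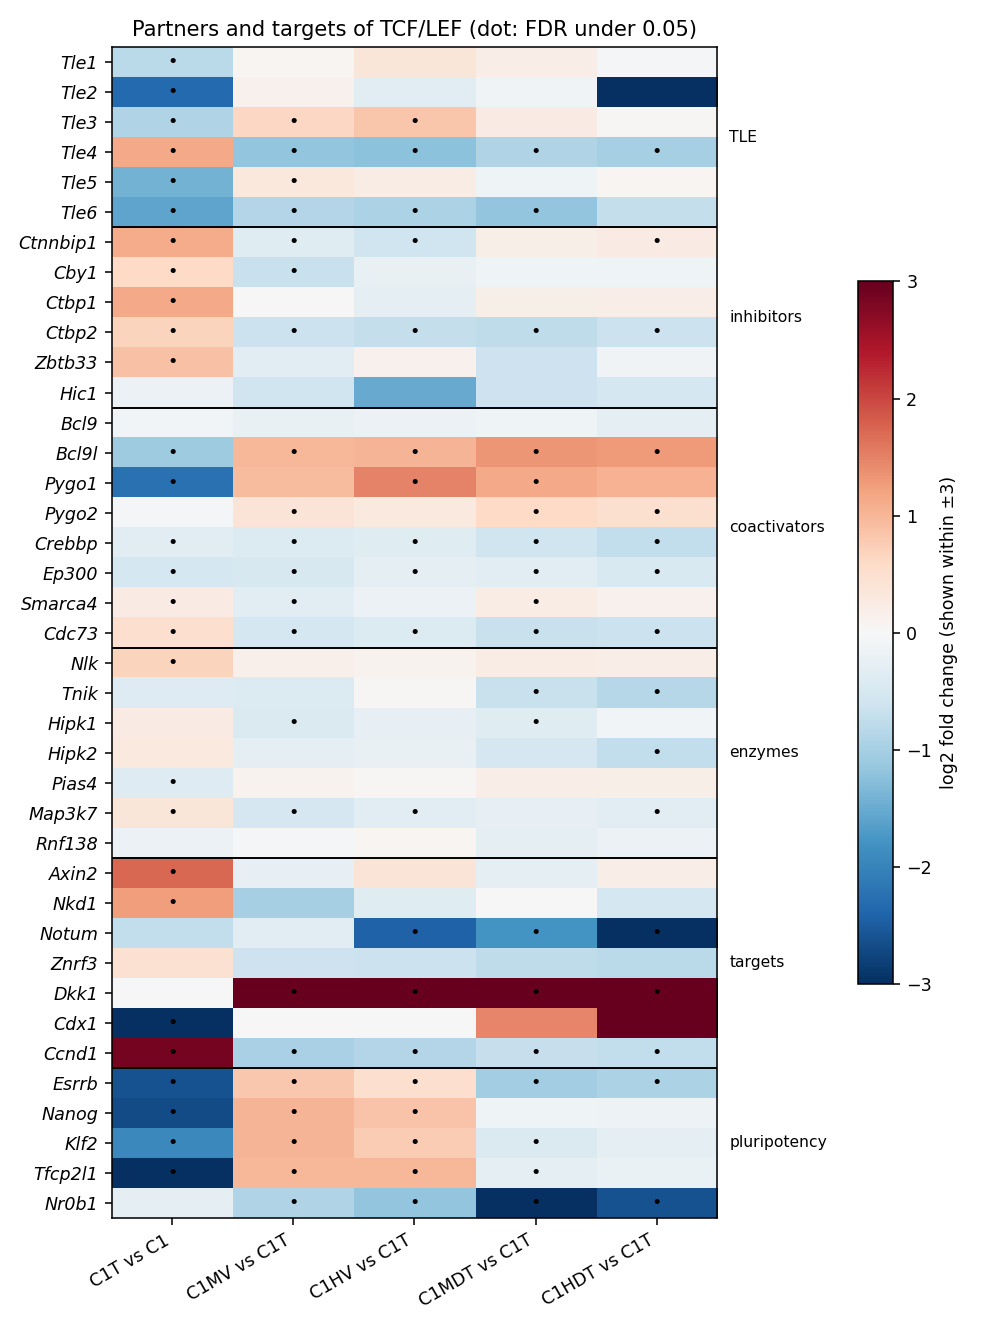
Log2 fold changes of the partner, enzyme and target genes that passed the filter (rows, grouped by list) in C1T vs C1 and in the 4 induced day 4 groups vs C1T (columns), with colours held within ±3 and a dot where the FDR is under 0.05. Tle4 and Ccnd1 rise in C1T and are lower in all induced groups, while Nanog, Klf2, Tfcp2l1 and Esrrb fall in C1T and are higher where induction was withdrawn. Cdx1, Dkk1, Notum and Tle2 rest on few counts.

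The genes whose log2 CPM followed each member most closely were ranked by Pearson's r over the 32 libraries among 9303 or 9304 genes. The libraries share the differences between the 8 groups, and the r is given as a description. The 3 genes closest to each member shared 0 or 1 with the 3 closest by Spearman's rho. They shared 0 with the 3 closest over the 20 day 4 libraries alone. For Lef1 they were Dusp6, a phosphatase of ERK kinases (r = 0.986, and 0.904 within the 20 day 4 libraries), Ina, a neuronal intermediate filament gene (0.986 and 0.876), and Snrpn, an imprinted gene of RNA splicing (0.981 and 0.835). Dusp6 had a mean of 5.73 CPM in C1, 75.7 in C1T, and 41.0, 38.8 and 49.9 in C1MV, C1HV and C1HDT. Among the day 4 means of Dusp6, as among those of Lef1, C1T stood first, the continued groups next and the withdrawn groups last.

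For Tcf7l1 they were L1td1, an RNA-binding protein gene of pluripotent cells (r = 0.832), Hcfc1, a transcriptional coregulator (0.827), and Igf2bp1, another RNA-binding protein gene (0.810). Within the 20 day 4 libraries these r were 0.706, 0.743 and 0.722. L1td1 had 741.6 CPM in C1 and 875.7 in C1T, and between 352.3 and 531.6 in the induced groups of both days. For Tcf7l2 they were Slmap (0.904), Cd55, a regulator of complement (0.903), and Grk3, a kinase of G protein-coupled receptors (0.899), all with lower means in each day 4 group than in each day 0 group. For Tcf7, whose counts were low, the largest r was 0.719, with Trmt61a, the gene of a tRNA methyltransferase subunit, followed by Apom (0.692) and Metap1 (0.679).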

How the data were processed

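RNA from 32 sorted or differentiated C1 cultures was sequenced with QuantSeq. The authors deposited whole-number counts per Ensembl gene, 1 table per library, which they had made by trimming with bbduk, aligning to mm10 with STAR and counting uniquely aligned reads with htseq-count. The strand setting of the counting is not given in the sources used here. Genes that overlap the 4 members had at most 5 counts in any library. Groups and replicate numbers were read from the labels, no library was left out, and no 2 libraries were identical. The series text calls the 4 libraries of a group biological replicates, and the paper says that they came from a single experiment, so p-values measure the spread between these libraries.

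Symbols were matched through GENCODE (31011 of 31053 genes). Counts were scaled by TMM and fitted with edgeR 4.0.16 (R 4.3.3, quasi-likelihood test, robust) in 1 model of 8 groups. The 15280 genes with a CPM of at least 1 in at least 4 libraries were tested, and Benjamini-Hochberg adjusted p-values (FDR) over these genes were called under 0.05. Standard errors are the log2 fold change over the root of F, and intervals are 95%. CPM in the text are scaled by TMM, and log2 CPM used a prior count of 2. Totals of 1366951 to 3648787 reads limit precision for Lef1 at day 0 and for Tcf7, and a floor of 3 counts covers counting error only.

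The 4 members, the lists and the comparisons were chosen with earlier results of these data known. Named genes were the members, Ctnnb1, up to 3 genes of each list with the smallest FDR in a comparison and any known member near the floor, and for each member the 3 genes with the highest r among genes whose mean log2 CPM was 3 or more. Some genes followed through further comparisons were chosen after their values were seen. Alternatives were RLE size factors, library size only, other filters, DESeq2 1.42.0, a replicate block, separate fits of the compared groups alone, and the omission of each library in turn. The steps were tested on simulated data. Protein sequences were not used here.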

Additional observations from a re-analysis of the deposited data

Results flagged for a closer look

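For 6 results the gap of a member between induced and uninduced cells differed between day 4 and day 0, by a test of the difference itself. In C1MV and C1HV the inducers had been withdrawn by day 4. The difference is given as the log2 change over C1T at day 4 minus that over C1 at day 0. For Tcf7l1 the difference was 0.37 for C1MDT (FDR = 0.0273 by edgeR's quasi-likelihood test), 0.44 for C1HV (FDR = 0.00907) and 0.37 for C1HDT (FDR = 0.0281). Its changes went from -0.55 in C1M and -0.66 in C1H at day 0 to -0.18, -0.22 and -0.29 at day 4. With each of 16 libraries left out in turn, the call was lost in 3 cases for C1MDT and in 5 for C1HDT, and held in all 16 for C1HV. The call for C1HDT was also lost with library size only and with DESeq2. For Lef1 the difference was -1.94 for C1MV (FDR = 0.000367), -1.17 for C1MDT (FDR = 0.0402) and -1.54 for C1HV (FDR = 0.0114). The first 2 of these Lef1 values rested on replicate 3 of C1M, which had 19 counts where the other C1M libraries had 2 to 4, and without it they were -0.93 (FDR = 0.296) and -0.16 (FDR = 0.911). In no group of 4 did a single library of any member stand apart from the others by Dixon's criterion.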

How the results depend on the processing

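Changes are log2 unless they are counts of genes. Lef1 and Tcf7l2 kept all calls between groups under the normalization, filter, test and block alternatives, except that Lef1 had no value with a CPM of at least 1 in all libraries. With library size only the median change of all genes was 0.119 in C1M vs C1, 0.12 in C1H vs C1, -0.103 in C1MDT vs C1M, -0.138 in C1HDT vs C1H and -0.114 in the difference for C1HDT, and with RLE or DESeq2 it was -0.101 in C1HDT vs C1H. Tcf7 in C1MV vs C1M (main 0.71, FDR = 0.0463 by edgeR) lost its call with RLE (0.697, FDR = 0.0517), library size only (0.682, FDR = 0.0581), no filter (0.704, FDR = 0.0696), DESeq2 (0.7001, FDR = 0.0686) and the replicate block (0.7098, FDR = 0.0511). Tcf7 in C1HDT vs C1H lost it with library size only (0.657), no filter (0.708) and DESeq2 (0.6975), and the Tcf7l1 difference for C1HDT with library size only (0.318) and DESeq2 (0.345). Near 0 and uncalled, Tcf7 in C1HDT vs C1T turned to -0.0146 with RLE, -0.00803 with the stricter filter and -0.0231 with DESeq2, Tcf7l2 in C1MDT vs C1T to -0.00164 with DESeq2, and its C1MDT difference to 0.0119 in a fit of the compared groups. Genes called went from 1 to 3 without the filter and to 0 with compared groups only in C1HV vs C1MV, from 0 to 11 without the filter for duration by fraction, from 271 to 601 in C1H vs C1M and from 0 to 1 in C1HDT vs C1MDT with compared groups only. Deviations from group means correlated by -0.00163 on average between libraries of the same replicate number and by 0.000545 between others, and 7 of 32 libraries were closest to their own number. The numbers gave no pairing, and the block changed no other call.

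With each library left out in turn, 753 values of members kept their direction and side of the threshold, 29 lost a call, 1 gained it and 49 uncalled values changed sign. Ranges with such changes were as follows. For Lef1 they were -0.871 to 0.407 in C1M vs C1, -0.62 to 0.658 in C1H vs C1M and -0.0853 to 0.164 in C1HV vs C1MV, and for its differences between days -2.21 to -0.931 (C1MV) and -1.44 to -0.161 (C1MDT). For Tcf7l1 they were 0.203 to 0.396 in C1HDT vs C1H, -0.407 to -0.214 in C1HDT vs C1T, 0.167 to 0.3003 in C1MDT vs C1MV (called without replicate 2 of C1MV), -0.186 to 0.00636 in C1HDT vs C1HV, and 0.313 to 0.444 (C1MDT) and 0.256 to 0.448 (C1HDT) for its differences. For Tcf7 they were 0.601 to 0.943 in C1MV vs C1M, 0.633 to 1.06 in C1MDT vs C1M and 0.516 to 0.900 in C1HDT vs C1H, and uncalled -0.209 to 0.191 in C1H vs C1M, -0.083 to 0.241 in C1MV vs C1T, -0.052 to 0.368 in C1MDT vs C1T, -0.202 to 0.217 in C1HDT vs C1T, -0.0793 to 0.235 in C1MDT vs C1MV, -0.366 to 0.0575 in C1HDT vs C1MDT and -0.162 to 0.235 for the C1HV difference. For Tcf7l2, uncalled, they were -0.036 to 0.169 in C1M vs C1, -0.0209 to 0.192 in C1H vs C1, -0.0284 to 0.0491 in C1H vs C1M, -0.0571 to 0.0901 in C1MDT vs C1T, -0.107 to 0.0498 in C1HV vs C1MV, -0.0135 to 0.183 (C1MV), -0.138 to 0.0549 (C1MDT) and -0.071 to 0.129 (C1HV) for the differences, and -0.144 to 0.0136 for duration by fraction. Genes called were 118 to 232 in C1H vs C1M, 0 to 8 in C1HV vs C1MV, 0 to 21 for duration by fraction and 0 to 1 in C1HDT vs C1MDT. The 3 genes closest to a member shared 0 or 1 with those by Spearman's rho and 0 with those over the 20 day 4 libraries. The causes were not tested.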
